A study of Danio rerio with 4 samples.

Results

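The sham operation of a zebrafish optic nerve study was examined here by itself: eyes whose extraocular muscles were cut while the nerve was left intact, followed over time. The members were the sham channels of the 9 two-colour arrays that set sham RNA beside injured RNA, 9 of the 22 channels in the series, with 3 pools at each of 3, 24 and 168 h after surgery. The study severed the optic nerve in wild-type (zdr) fish bought from a pet store and kept on a 12 h light and dark cycle, and used the sham operation as the control for that surgery. RNA was pooled from several fish per sample, from eyes without lens and sclera, and operations were done under MS-222 anaesthesia. The injured eyes, in the other channel of the same arrays, had both the muscles and the nerve cut, so the muscle cut was common to both. A further 2 arrays held untreated left eyes of control fish, by the array names as 3 pools (pools 2, 3 and 4) with pool 2 on both arrays. The labels instead name 4 control replicates. The array names were followed, so pool 2 is read here as 1 pool. Pools are named by the numbers in the array names: 2, 3 and 4 at 3 h, and 1, 2 and 3 at 24 h and at 168 h. The number of eyes in a pool is not given in the sources used here, and there is no sham group at 0 h, so the unoperated pools are the nearest reference.

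Cutting the extraocular muscles wounds striated muscle, its blood supply and the connective tissue of the orbit, and leaves the retina and its axons in place. Handling, anaesthesia and wounding are known to raise cortisol in fish, which acts through the glucocorticoid receptor on targets such as fkbp5. In wounds of zebrafish, immediate early transcription factors come first, neutrophils and macrophages enter next, and matrix and muscle repair follow over days. Photoreceptors are the most numerous neurons of the zebrafish retina and depend on the pigment epithelium, which recycles visual pigment through the enzyme Rpe65.

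The dye of each sham pool was taken from the array names, which put sham RNA in Cy5 for 6 pools and in Cy3 for 3, with 1 Cy3 pool at each time. The labels instead put sham RNA in Cy3 on all arrays. The authors' own log ratio table correlated with the array-name reading over 14067 probes at r = 0.847 for 3 h, r = 0.845 for 24 h and r = 0.823 for 168 h, where probes do not count as replicates. Against the reading of the labels it correlated at -0.432, -0.482 and -0.397. Under the labels' reading, 51 of 92 single-gene differences between sham times that were computed under both readings lay within 1.5 times the value under the array names. A further 32 were smaller by more than that, 8 were larger and 1 turned sign, and those of genes described here are given with the genes or in a paragraph of their own after them.

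Each array carried 14067 zebrafish probes, 173 Arabidopsis control probes and 544 empty positions. Detection in a channel meant a foreground above the 95th percentile of that channel's empty positions. Between 17.2% and 71.9% of the zebrafish probes were detected per sham channel, 1462 of them in all 9 channels and 2079 in none. The share of Arabidopsis probes detected ran from 2.89% to 53.2%, highest in 168 h pool 2. Both shares were higher in the Cy3 sham pools than in the Cy5 ones. At 3, 24 and 168 h the Cy3 pools detected 62.7%, 49.6% and 71.9% of zebrafish probes. Of Arabidopsis probes they detected 40.5%, 30.6% and 53.2%. The highest shares in a Cy5 sham pool were 44.8% and 17.3%. Counts of detected channels therefore mix dyes of unlike detection. Of defining markers, gnat1 of rods, arr3a of cones, rbpms2b of ganglion cells, glula of Müller glia and rpe65a of pigment epithelium were detected in all 9 channels. So were actc1b and mylpfa of skeletal muscle, krt5 and krt97 of surface epithelium, hbaa1 of red cells and coro1a of leukocytes. The lens genes cryaa and crygm2d1, the pigment gene tyrp1b, the glial gene gfap and the neutrophil gene lyz were each detected in 1 channel. So were the ganglion cell genes pou4f3 and gap43. Gnat2 of cones, tnnt3a of muscle and lcp1 of leukocytes were detected in 2 channels. Pvalb2 of muscle, krt4 of surface epithelium and dct of pigment cells were detected in 4, and cldni of surface epithelium in none. Alas2 of red cells and mpx of leukocytes were detected in 5, and isl2b of ganglion cells in 6. In RNA from mixed eye tissue without lens and sclera, fewer cells of a type and less RNA per cell cannot be told apart.

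Each sham pool was read on 1 array, so the effects of array and pool are confounded in every value below, and array differences cannot be told apart from differences between pools of fish. Channels of the same array were on average more alike than channels of different arrays. Over 3256 probes detected in at least 6 sham channels, the sham and injured channels of 1 array correlated at 0.881 on average (9 pairs), against 0.793 for sham and injured channels of different arrays at the same time (18 pairs). Channels of 1 array always differed in dye, while pairs from different arrays included some of the same dye. The gap between these means is therefore no measure of the size of an array component. Sham pools of the same time and dye correlated at 0.723 on average (3 pairs), and those of the same dye but different times at 0.746 (15 pairs). The same-time pairs were all in Cy5 and the others included Cy3 pairs, so these means do not compare like pairs. The unoperated pool 2, labelled and read on 2 arrays, correlated with itself at 0.730, and with the different pool beside it on the same array at 0.871 and 0.879, over 5966 probes. Different unoperated pools on different arrays correlated at 0.730, 0.722 and 0.656.

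No probe passed an adjusted p of 0.05 in limma's moderated test in any comparison between sham times, so 0% were called. From 3 to 24 h, 449 of 14065 probes (3.19%) had an unadjusted p under 0.05, and the smallest adjusted p was 0.9998. From 3 to 168 h these were 702 of 14067 probes (4.99%), with 0.7904 as the smallest adjusted p, and from 24 to 168 h 671 of 14065 (4.77%), with 0.9438. The limma F test for any difference among the times gave 552 probes (3.92%) at an unadjusted p under 0.05 and a smallest adjusted p of 0.9804. That threshold passes a share of 0.05 when nothing differs. The median standard error of a difference was 0.45 on the log2 scale with 5 residual degrees of freedom. The genes and lists below are therefore a description of these 9 pools, whose small number limits the precision. Among 5081 genes with a symbol, those at an unadjusted p under 0.05 made up 1.42% higher and 1.93% lower at 24 h than at 3 h. The shares were 2.38% higher and 2.93% lower at 168 h than at 3 h, and 2.36% higher and 2.7% lower at 168 h than at 24 h.

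Fkbp5 and zbtb16a, targets of cortisol signalling, had their highest sham means at 3 h, while the list they belong to was divided. Fkbp5, which encodes a co-chaperone that restrains the glucocorticoid receptor and is itself induced by it, had log2 intensities of 11.18, 12.08 and 12.52 in the 3 h pools, 9.80, 9.69 and 7.76 at 24 h, and 9.09, 11.76 and 11.89 at 168 h. All 3 h pools lay above all 24 h pools, whereas 168 h pools 2 and 3 lay within the 3 h range and pool 1 far below it. The 24 h mean was lower by 7.18-fold, a log2 difference of -2.84 ± 0.79 (SE; limma unadjusted p = 0.00413), and between -3.25 and -1.82 with any 1 pool left out. At 168 h the difference from 3 h was -1.01, or -0.03 without 168 h pool 1. In the injured channel of the same arrays the 24 h difference was -3.39.

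Zbtb16a, a zinc finger repressor induced by glucocorticoids in mammals, read 10.89, 10.07 and 10.50 at 3 h against 8.40, 8.64 and 9.61 at 24 h, with no overlap. The difference was -1.60 ± 0.47 (limma unadjusted p = 0.00603), and it was -0.14 by the gene's other probe and -0.79 under the labels' reading. Of the 15 measured genes of the list of glucocorticoid receptor targets and stress axis genes, 6 lay above 0 and 9 below from 3 to 24 h, and these 2 were the members at an unadjusted p under 0.05, both lower. Of all named genes, 1.93% were lower at that threshold from 3 to 24 h. At 168 h, 5 genes of the list lay above 0 and 10 below against 3 h. At an unadjusted p under 0.05, 1 of them was lower, beside 2.93% of all named genes. The list had a median difference of -0.30 from 3 to 24 h and -0.28 from 3 to 168 h, beside 0.00 and 0.01 over all named genes. The first of these medians rested on 3 h pool 4, without which it was 0.03. Its 5 detected members had a median of -1.06 at 24 h, and these include fkbp5 and zbtb16a themselves.

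Mibp, which encodes a muscle integrin-binding protein, followed the same order as fkbp5. It read 14.32, 13.72 and 14.41 at 3 h, 12.66, 12.45 and 11.11 at 24 h, and 12.31, 13.98 and 14.03 at 168 h, so that again 24 h lay wholly below 3 h and 168 h pool 1 lay below its companions. The difference from 3 to 24 h was -2.08 ± 0.57 (limma unadjusted p = 0.0039), and -1.39 without 24 h pool 3. Igfbp1a, an insulin-like growth factor binding protein that limits growth signalling in stress and low oxygen, read 10.43, 11.97 and 11.45 at 3 h and 8.43, 10.57 and 10.00 at 24 h. The ranges overlapped slightly, the difference was -1.62 ± 0.59 (limma unadjusted p = 0.0194), and it was -0.96 without 24 h pool 1. Igfbp1a belonged to the list of oxidative stress and hypoxia genes, whose 46 measured members had a median of 0.02 at 24 h, with this gene alone at an unadjusted p under 0.05, lower. The share of all named genes lower at that threshold from 3 to 24 h was 1.93%.

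Odc1 and sat1a.2, a pair of polyamine genes named by their p-values and not from a list, were highest at 3 h. Odc1, ornithine decarboxylase, the first enzyme of polyamine synthesis, read 10.69, 10.41 and 10.55 at 3 h, 9.23, 9.51 and 8.71 at 24 h, and 8.96, 8.90 and 8.60 at 168 h. Both later times lay wholly below 3 h. The differences were -1.40 ± 0.37 at 24 h (limma unadjusted p = 0.00276) and -1.73 ± 0.37 at 168 h (limma unadjusted p = 0.000599), the latter between -1.88 and -1.58 with any 1 pool left out. Sat1a.2, a spermidine acetyltransferase that begins polyamine breakdown, read 12.26, 12.54 and 12.48 at 3 h, 11.31, 11.26 and 11.24 at 24 h, and 10.83, 10.95 and 11.36 at 168 h, without overlap between 3 h and either later time. Its differences were -1.16 ± 0.35 (limma unadjusted p = 0.00695) and -1.38 ± 0.35 (limma unadjusted p = 0.00226). Its other probe gave -1.01 and -0.65.

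The inhibitors of translation eif4ebp3 and eif4ebp3l were also lower after 3 h. Eif4ebp3 read 9.77, 10.05 and 9.45 at 3 h, against 8.49, 8.88 and 8.47 at 24 h and 8.25, 8.81 and 8.62 at 168 h. The later times did not overlap with 3 h, and the differences were -1.15 (limma unadjusted p = 0.0101) and -1.20 (limma unadjusted p = 0.00787). Under the labels' reading the former was -0.31 and the latter -0.95. For eif4ebp3l they were -1.17 and -1.16, again without overlap, and that at 24 h was -0.77 without 24 h pool 1.

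**Figure D1:**
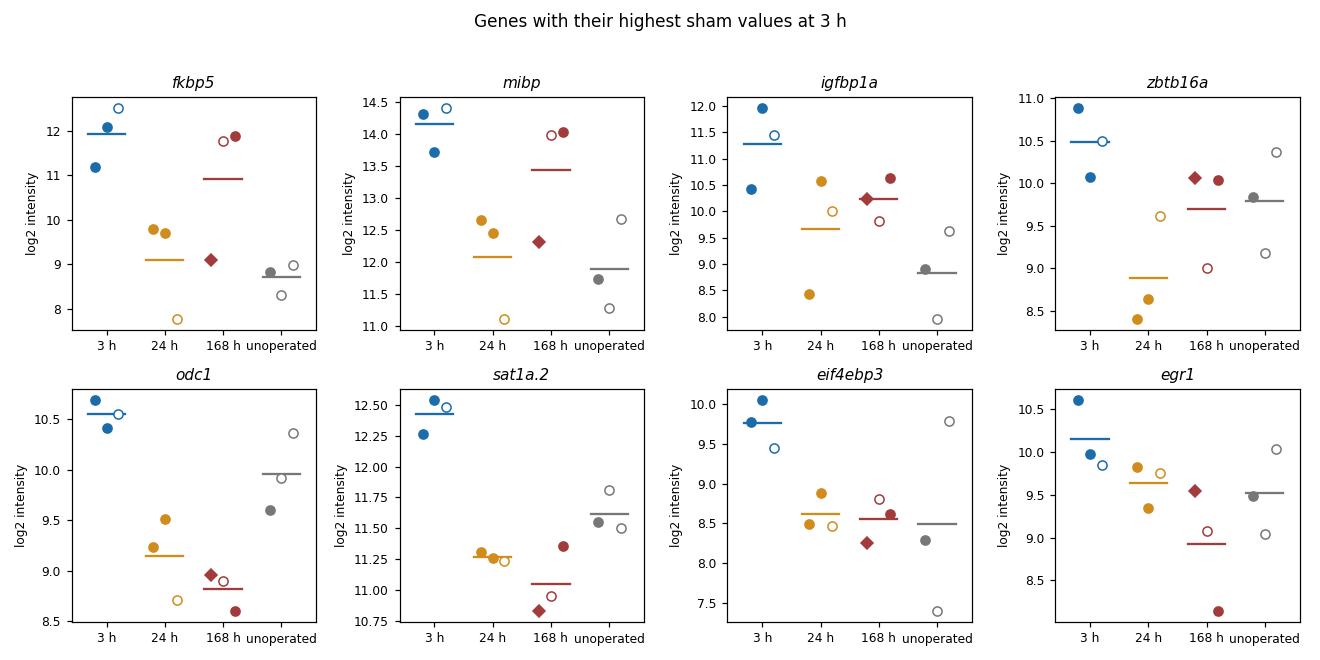
Log2 intensity of 8 genes (y axes) in each pool at 3, 24 and 168 h after the sham operation and in unoperated eyes (x axes). Points are pools, filled for Cy5 and open for Cy3, the diamond is 168 h pool 1, and lines are means of 3 pools; the 24 h pools of fkbp5, mibp, odc1 and sat1a.2 all lie below the 3 h pools.

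Immediate early genes were mostly dim and few stood out. Of 27 measured, 12 were detected in at least 6 of the 9 channels. From 3 to 168 h, 17 lay below 0 and 10 above, with a median of -0.32 against 0.01 over all named genes. At an unadjusted p under 0.05, 1 was higher and 2 were lower, beside 2.38% and 2.93% of all named genes. The median was 0.02 without 3 h pool 4. Egr1, a zinc finger factor induced by neuronal activity and injury, read 10.61, 9.98 and 9.85 at 3 h, 9.83, 9.35 and 9.75 at 24 h, and 9.54, 9.08 and 8.14 at 168 h. The 168 h pools lay below the 3 h pools, by -1.23 ± 0.45 (limma unadjusted p = 0.0192), or by -0.80 without 168 h pool 3, and its other probe gave -0.67. Btg1, an antiproliferative factor, read 12.36, 13.60 and 13.10 at 3 h and 12.23, 12.30 and 11.71 at 168 h, a difference of -0.94 (limma unadjusted p = 0.0455) that was -0.60 without 3 h pool 3. Dusp1, a phosphatase that switches off MAP kinases and is also a glucocorticoid target, read 10.62, 11.29 and 11.61 at 3 h and 10.70, 10.12 and 10.40 at 168 h. These overlapped, and the difference was -0.77 (limma unadjusted p = 0.076), or -0.45 without 3 h pool 4. The textbook members fosab and jun were each detected in 3 of 9 channels.

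Cry1a, a light-responsive cryptochrome of the fish clock, read 10.76, 10.76 and 10.25 at 3 h against 9.11, 9.85 and 9.57 at 24 h, a difference of -1.08 ± 0.45 (limma unadjusted p = 0.0361) without overlap. It was the 1 member of 25 measured clock genes at an unadjusted p under 0.05 between these times, and the list had a median of -0.15. The shares of all named genes at that threshold were 1.93% lower and 1.42% higher. The fish lived on a 12 h light and dark cycle, 24 and 168 h are whole days after surgery and 3 h is not. The hour of surgery is not given in the sources used here, so time of day and time after surgery cannot be told apart in any comparison with 3 h.

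Cone genes were lower at 168 h than at 3 h in most of the members measured. Of 26 cone genes, 20 lay below 0 and 6 above, with a median of -0.19 beside 0.01 over all named genes. The 18 detected cone genes had a median of -0.04, with 14 below 0 and 4 above. Of the members, 5 were lower and 1 was higher at an unadjusted p under 0.05, beside 2.93% and 2.38% of all named genes. The 168 h pool 1 stood apart: the list's median deviation from its mean over the 9 pools was -0.60 there, and without that pool the median difference was 0.01. The median of the 17 rod genes was -0.25, with 1 gene at an unadjusted p under 0.05 in each direction, and 0.13 without the same pool, in which the rod deviation was -0.65. In that pool the 71 ribosomal protein genes deviated by 0.58 in the other direction. The part of this pool's RNA, labelling or array in these values was not tested.

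Some photoreceptor genes were lower in all of the 168 h pools. Arr3b, a cone arrestin that quenches activated opsin, read 11.34, 11.41 and 11.17 at 3 h, 10.25, 10.96 and 10.44 at 24 h, and 9.75, 10.35 and 9.44 at 168 h. The 168 h pools lay below all 3 h pools, by -1.46 ± 0.39 (limma unadjusted p = 0.00321). Guca1aa, a guanylate cyclase activator that restores cyclic GMP after light, read 10.39, 10.66 and 9.94 at 3 h and 7.96, 8.62 and 7.45 at 168 h, and was detected in 6 of 9 channels. Its difference was -2.32 ± 0.50 (limma unadjusted p = 0.000697), between -2.70 and -2.04 with any 1 pool left out, and -1.30 under the labels' reading. Its 168 h values of 7.96 and 7.45 lay within the range of cldni, a gene detected in no sham channel (6.97 to 7.98). How far background set the size of this difference was not tested. Guca1c, a cone relative of guca1aa, read 13.84, 15.03 and 14.33 at 3 h and 12.22, 13.72 and 13.34 at 168 h, without overlap. That difference was -1.30 ± 0.49 (limma unadjusted p = 0.0216), and -0.86 without 168 h pool 1. Pdcb, phosducin, which binds transducin subunits, read 11.15, 12.79 and 11.91 at 3 h and 9.19, 10.49 and 10.92 at 168 h. It differed by -1.75 ± 0.55 (limma unadjusted p = 0.00897) without overlap, and by -1.19 without 168 h pool 1.

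Bright photoreceptor genes were limited by the scanner. Arr3a, the other cone arrestin, read 15.77, 15.59 and 15.60 at 3 h and 14.21, 14.91 and 15.22 at 168 h, a difference of -0.87 ± 0.39 (limma unadjusted p = 0.0467) that was -0.55 without 168 h pool 1 and -0.69 by its other probe. Between 19% and 62% of its pixels were saturated at 3 h, at most 11% at 24 h and at most 1% at 168 h, so its 3 h level is a lower limit. Gnat1, rod transducin, read 15.49, 15.03 and 15.18 at 3 h and 12.21, 15.18 and 15.46 at 168 h, so 1 pool lay far below the others. The share of its saturated pixels was 0%, 36% and 32% at 3 h and 0%, 48% and 0% at 168 h, so the levels of 3 of these 6 pools are lower limits. Its difference of -0.95 (limma unadjusted p = 0.214) turned to 0.14 without 168 h pool 1, and its other probe gave -1.09.

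Of the cone opsins described here, opn1sw2 alone was at an unadjusted p under 0.05 from 3 to 168 h. Opn1sw2, the blue opsin, read 11.46 and 11.85 in 3 h pools 4 and 3 and less in pool 2, 11.32, 12.56 and 11.57 at 24 h, and 12.56, 12.68 and 12.38 at 168 h. All 168 h pools, pool 1 included, lay above all 3 h pools, by 1.07 ± 0.43 (limma unadjusted p = 0.0291), or by 0.54 under the labels' reading. The ultraviolet opsin opn1sw1 differed by -0.20 and the green opsin opn1mw2 by -0.52, and these became 0.46 and 0.11 without 168 h pool 1. Other probes of these opsins gave -1.31 for opn1sw1 and -0.57 for opn1mw2, so the size and sign of both depend on the pool and the probe.

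Rpe65a had the smallest p-value of the photoreceptor and pigment epithelium genes described here. It encodes the isomerase of the pigment epithelium that regenerates the chromophore of visual pigment. It read 12.58, 13.27 and 12.38 at 3 h, 11.13, 11.02 and 12.26 at 24 h, and 10.67, 9.62 and 10.46 at 168 h, beside 10.51, 10.13 and 11.51 in unoperated eyes. The 3 times did not overlap, and the unoperated pools lay below the 3 h pools and overlapped with both later times. The 168 h level was 5.62-fold lower than at 3 h, a log2 difference of -2.49 ± 0.48 (limma unadjusted p = 0.000285), between -2.71 and -2.07 with any 1 pool left out. From 3 to 24 h it differed by -1.27 and from 24 to 168 h by -1.22. Its other probes gave -1.31 and -0.71 from 3 to 168 h, the same direction with a smaller size. If sham RNA was in Cy3 on every array, as the labels say, the difference was -0.70 from 3 to 168 h. It was then 0.01 from 3 to 24 h and -0.72 from 24 to 168 h. In the injured channel it was 0.31 from 3 to 168 h. The difference between the sham and injured time courses was -2.80 in a within-array limma fit (unadjusted p = 0.000135, adjusted p = 0.9356). Of all 24 pigment epithelium genes, rpe65a included, 12 lay below 0 and 12 above, the median was -0.01, and rpe65a alone was at an unadjusted p under 0.05. The shares of all named genes at that threshold were 2.93% lower and 2.38% higher from 3 to 168 h.

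**Figure D2:**
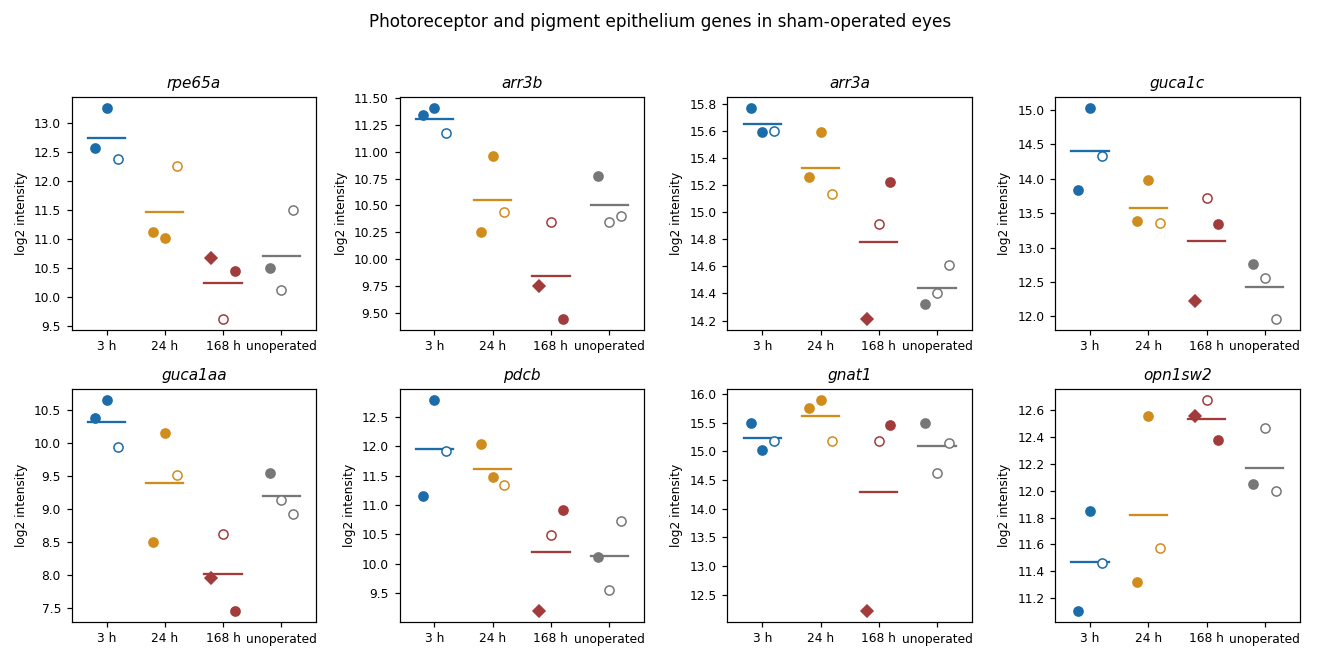
Log2 intensity of 8 photoreceptor and pigment epithelium genes (y axes) in each pool at 3, 24 and 168 h after the sham operation and in unoperated eyes (x axes), with points, dyes, the diamond for 168 h pool 1 and mean lines as in the plot of the genes highest at 3 h. Rpe65a, arr3b and guca1aa are lower in every 168 h pool than in every 3 h pool, while the low mean of gnat1 at 168 h comes from pool 1.

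Müller glia genes had a median difference of -0.07 from 3 to 168 h over 37 members, 4 of them lower and none higher at an unadjusted p under 0.05. Of all named genes, 2.93% were lower and 2.38% higher at that threshold. Of the 4, glula and glulb encode glutamine synthetase, which turns glutamate taken up from synapses into glutamine. Glula read 12.61, 13.24 and 12.35 at 3 h, 11.57, 12.84 and 11.49 at 24 h, and 10.03, 11.62 and 12.25 at 168 h. The 3 h and 168 h pools did not overlap, and the difference was -1.44 ± 0.59 (limma unadjusted p = 0.0338), or -0.70 without 168 h pool 1. Its other probes gave -2.60 and -1.65. Glulb read 10.47, 10.03 and 10.28 at 3 h and 9.20, 9.45 and 8.44 at 168 h, also without overlap, and differed by -1.23 (limma unadjusted p = 0.0218), with -1.92 by its other probe. Another, cahz, a carbonic anhydrase shared with red cells, differed by -1.85 (limma unadjusted p = 0.00688).

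Of 39 genes of the inner retina, 25 lay below 0 from 3 to 168 h, with a median of -0.18. At an unadjusted p under 0.05, 3 were lower, beside 2.93% of all named genes. Calb2b, a calretinin found in amacrine and ganglion cells, read 8.29, 9.73 and 9.61 at 3 h, 9.62, 10.18 and 8.38 at 24 h, and 7.16, 8.08 and 7.32 at 168 h. The 168 h pools lay below all others, with a difference of -1.87 ± 0.56 from 24 h (limma unadjusted p = 0.00677) and -1.69 from 3 h. Under the labels' reading these were -0.57 and -1.03. The 168 h values of 7.16 and 7.32 lay within the range of cldni, a gene detected in no sham channel (6.97 to 7.98). How far background set the size of these differences was not tested. Neurod1, a neurogenic factor also used by photoreceptors, read 7.89 in 168 h pool 1 against 10.82 and 11.67 in its companions, and its difference of -1.42 from 3 h was -0.20 without that pool. The 28 ganglion cell genes, the cells whose axons form the nerve, had a median of 0.14 from 3 to 168 h and none at an unadjusted p under 0.05 in either direction. Their marker rbpms2b read 10.21, 10.38 and 10.62 at 3 h and 11.18, 11.15 and 10.16 at 168 h, overlapping, with a difference of 0.43.

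The muscle genes, the tissue cut in the operation, had no common shift in their medians. The 54 measured skeletal muscle genes had a median of -0.01 from 3 to 24 h and 0.04 from 3 to 168 h, and 11 were detected. From 3 to 168 h, 6 were higher and 1 lower at an unadjusted p under 0.05, beside 2.38% and 2.93% of all named genes. Mylpfa, a myosin light chain of fast muscle, read 13.67, 13.40 and 13.33 at 3 h, 13.20, 12.74 and 13.07 at 24 h, and 14.40, 14.22 and 14.36 at 168 h. All 168 h pools lay above all others, by 1.32 ± 0.35 from 24 h (limma unadjusted p = 0.00303) and 0.86 from 3 h, while its other probe gave 0.35 and 0.34. Tpma, a tropomyosin of the thin filament, read 9.28, 8.06 and 8.76 at 3 h, 9.17, 8.99 and 8.95 at 24 h, and 10.14, 9.91 and 9.86 at 168 h. Again all 168 h pools lay above the others, by 1.27 ± 0.40 from 3 h (limma unadjusted p = 0.00879). Acta1b, a skeletal actin, differed by 1.03 from 3 to 168 h (limma unadjusted p = 0.0343) with overlapping pools, and its other probes gave -0.01 to 0.80. Actins share sequence, so these probes may read more than 1 gene.

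Myh7l, a slow myosin heavy chain, was high at 24 h alone, with 10.36, 11.55 and 8.47, against 7.22, 7.54 and 8.12 at 3 h and 7.82, 8.26 and 6.99 at 168 h. The 24 h pools lay above all others, although pool 3 only just did. The fitted 24 h mean was 5.65-fold above 3 h (limma unadjusted p = 0.00368). The log2 difference became 1.78 without 24 h pool 2 and 1.53 without background subtraction, and its other 3 probes gave 0.19 to 0.47. Cldni, a gene detected in no sham channel, ranged from 6.97 to 7.98. The myh7l values of 7.22 and 7.54 at 3 h and of 7.82 and 6.99 at 168 h lay within that range. How far background set the size of this fold was not tested further. The 17 genes of muscle precursors and muscle repair had medians of 0.14 from 3 to 24 h and 0.13 from 3 to 168 h.

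The list with the highest median was that of smooth muscle, pericytes and vessels, at 0.64 from 3 to 168 h over 14 members, 11 of them above 0. Of these, 1 passed an unadjusted p of 0.05, beside 2.38% of all named genes that were higher at that threshold. Its median was -0.04 from 3 to 24 h, lay between 0.38 and 0.75 with any 1 pool left out, was 0.31 when all probes of a gene were averaged, and was 0.29 under the labels' reading. In the injured channel it was 0.06. The member past that threshold was tal1, a factor of blood and endothelial precursors, whose difference of 2.21 (limma unadjusted p = 0.0345) was 0.94 without 168 h pool 3, where it read 13.13. Cnn2, a calponin that binds actin, read 10.30 in 168 h pool 2 and 7.22 in pool 1 and differed from 3 h by 1.35 (limma unadjusted p = 0.0755), with overlapping pools, or by 0.30 without 168 h pool 2.

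Matrix and wound repair genes had a median of -0.12 from 3 to 168 h over 35 members. Of these, 2 were higher at an unadjusted p under 0.05, beside 2.38% of all named genes. Fn1a, fibronectin, an early scaffold of wound matrix, read 7.07, 7.20 and 7.18 at 3 h, 7.22, 7.70 and 7.67 at 24 h, and 8.54, 8.30 and 8.19 at 168 h, the last above all others. It was not detected at 3 or 24 h and was detected in 2 of the 168 h channels. The fitted 168 h level was 2.29-fold above 3 h (limma unadjusted p = 0.00592, adjusted p over 0.05 like every probe). Since the 3 h signal was not above background, this fold is neither a measured size nor a lower bound. The log2 difference was 1.19, and 0.51 under the labels' reading. Col1a1a, the main fibrillar collagen, was detected in 5 channels and differed by -0.97 (limma unadjusted p = 0.0632), or by -0.46 without 168 h pool 3, and its other probes gave 0.13 and -0.60.

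Leukocyte and microglia genes had medians of 0.10 from 3 to 24 h and 0.15 from 3 to 168 h over 30 members, 1 of them lower at an unadjusted p under 0.05 at 168 h. That 1 was mpx, the neutrophil peroxidase, which read 9.06, 9.73 and 9.63 at 3 h, 8.18, 10.25 and 9.39 at 24 h, and 7.92, 7.84 and 8.04 at 168 h. It was detected in 5 of 9 channels, 1 of them at 168 h, and was not above background in the others. The 168 h pools lay below all others, by -1.54 ± 0.51 from 3 h (limma unadjusted p = 0.0113), while its other probes gave 0.14 and 0.24. Inflammation genes had medians of 0.24 at 24 h and 0.07 at 168 h against 3 h, with 3 of 17 measured members detected. Complement and acute phase genes had 0.04 and 0.11, with 3 of 23 detected. Red cell genes had -0.19 and 0.10 over 16 members, and surface epithelium genes -0.13 and -0.15 over 37, 3 of them lower at an unadjusted p under 0.05 at 168 h. At 168 h against 3 h, 2.93% of all named genes were lower at that threshold.

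**Figure D3:**
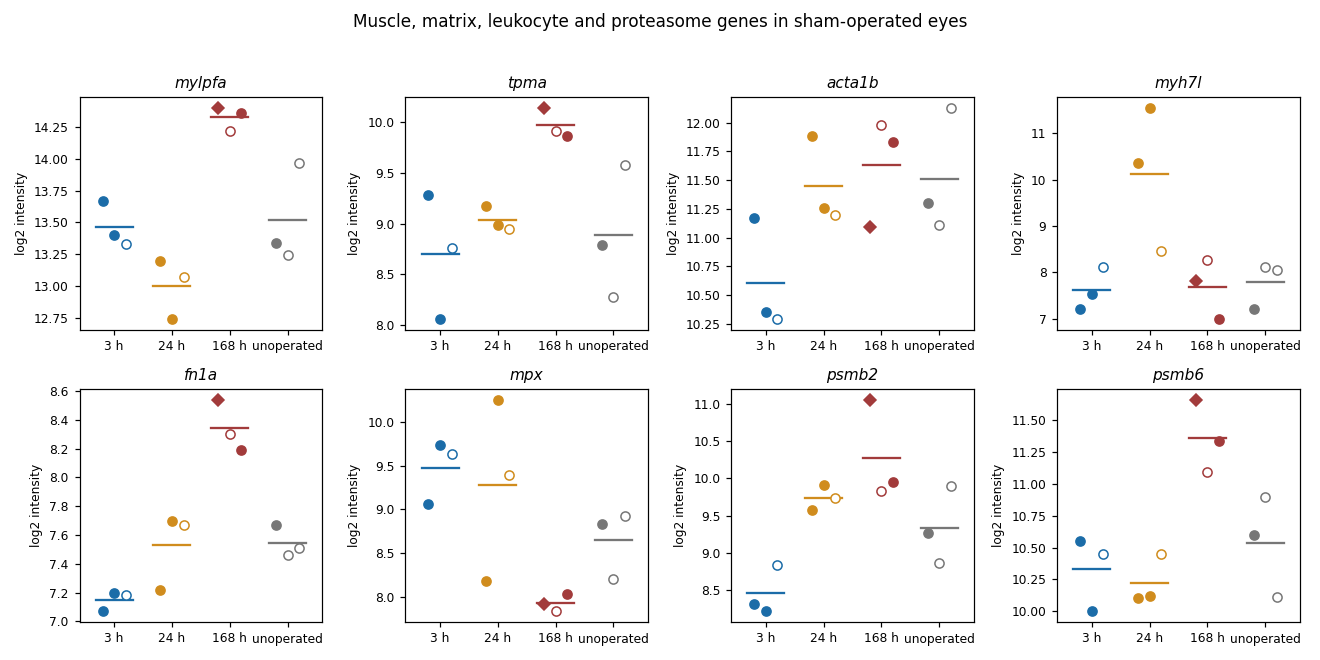
Log2 intensity of 8 muscle, matrix, leukocyte and proteasome genes (y axes) in each pool at 3, 24 and 168 h after the sham operation and in unoperated eyes (x axes), with points, dyes, the diamond for 168 h pool 1 and mean lines as in the plot of the genes highest at 3 h. Mylpfa, tpma and fn1a are higher in every 168 h pool than at the earlier times, and myh7l is high in 24 h pools 1 and 2.

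The 41 proteasome genes had medians of 0.16 from 3 to 24 h and 0.05 from 3 to 168 h. In the latter, 2 were higher and none lower at an unadjusted p under 0.05, beside 2.38% and 2.93% of all named genes. Their 22 detected members had higher medians, 0.43 and 0.46, with 17 of 22 above 0 in both comparisons, beside 0.04 and 0.03 over all detected named genes. These comparisons share the 3 h pools. Psmb2, a subunit of the catalytic core, read 8.32, 8.22 and 8.84 at 3 h, 9.58, 9.91 and 9.73 at 24 h, and 11.05, 9.83 and 9.95 at 168 h. The later pools all lay above 3 h, by 1.28 (limma unadjusted p = 0.0119) and 1.82 ± 0.43 (limma unadjusted p = 0.00132), but its other probe gave -0.37 at both times. Psmb6, which carries the caspase-like activity of that core, read 10.10, 10.12 and 10.45 at 24 h and 11.66, 11.09 and 11.34 at 168 h, higher without overlap by 1.14 ± 0.37 (limma unadjusted p = 0.0102). The 56 heat shock and chaperone genes had medians of 0.10 and 0.03. Hspb1, a small heat shock protein, read 8.94, 9.36 and 7.73 at 3 h and 9.31, 10.79 and 10.80 at 24 h. The pools overlapped, and the difference of 1.62 (limma unadjusted p = 0.0129) was 0.93 without 3 h pool 4.

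The remaining lists had medians between -0.24 and 0.12 from 3 to 168 h, beside 0.01 over all named genes. The median was 0.12 for the 71 ribosomal protein genes, and -0.16 without 168 h pool 1. It was 0.10 for 55 cell cycle genes, 3 higher and 1 lower at an unadjusted p under 0.05, and -0.12 for 101 genes of translation and splicing, with 6 lower and none higher. Of all named genes, 2.38% were higher and 2.93% lower at that threshold. The median was -0.24 for 32 genes of apoptosis and p53, of which 22 lay below 0 and 5 were detected, and -0.01 under the labels' reading. It was 0.01 for 49 respiratory chain genes and -0.09 for 13 lens genes, of which 1 was detected. Hmgb2b, a chromatin protein of dividing cells, read 8.08, 7.97 and 8.60 at 24 h and 10.19, 9.16 and 9.77 at 168 h, higher by 1.49 ± 0.45 (limma unadjusted p = 0.00705) without overlap.

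**Figure D4:**
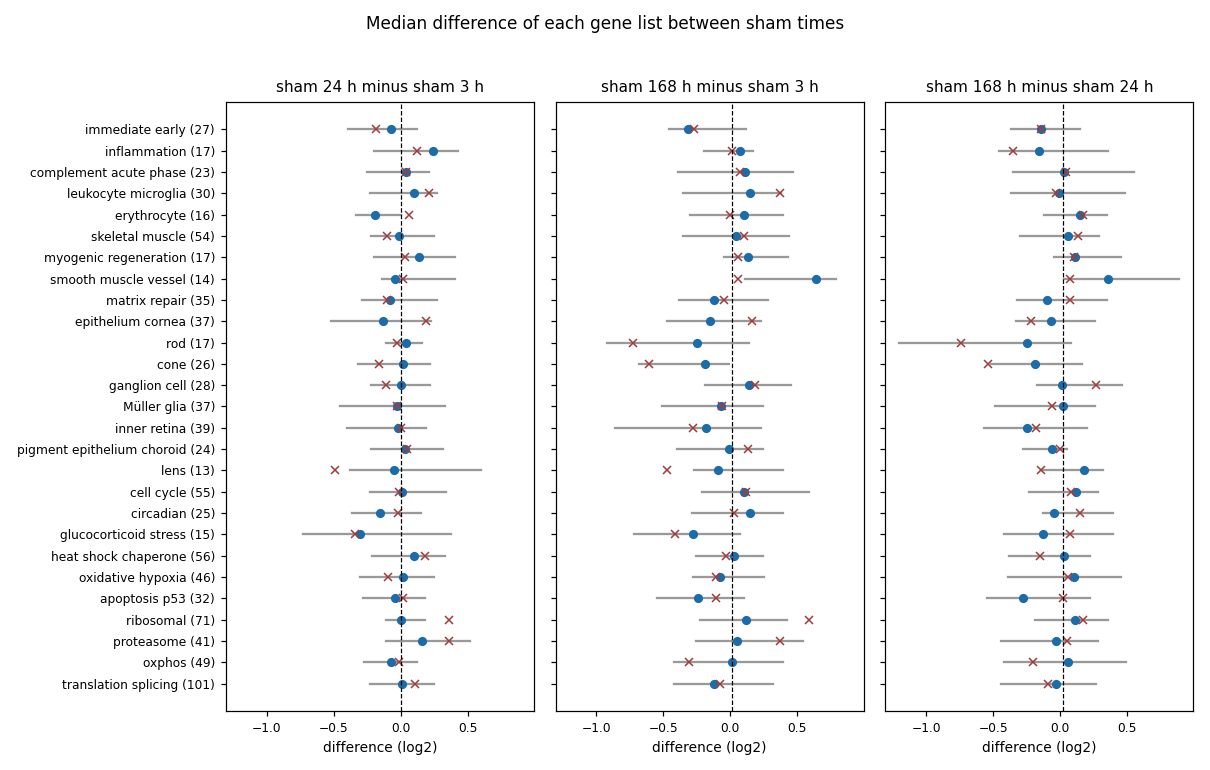
Median log2 difference of each gene list (blue points, with the interquartile range of its members as grey lines) for the 3 comparisons between sham times, the number of measured genes in brackets. Red crosses are the medians of the same genes in the injured channels and the dashed line is the median of all named genes; rod and cone medians at 168 h lie at -0.25 and -0.19 in sham and at -0.73 and -0.61 in injured eyes.

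Genes outside the lists were named by their p-value in each comparison. From 3 to 24 h, banf1, a DNA-bridging protein of the nuclear envelope, read 7.83 to 8.08 and then 9.15, 9.08 and 9.17, without overlap and with a difference of 1.16 ± 0.34 (limma unadjusted p = 0.00593). Its other probe gave 0.41, and the labels' reading 0.16. Rx2, a retinal homeobox factor, read 10.87, 11.30 and 11.30 at 3 h and 12.21, 12.21 and 12.08 at 24 h, higher by 1.01 without overlap (limma unadjusted p = 0.0183). G3bp2b, a stress granule protein, was higher by 0.97 (limma unadjusted p = 0.0213), and its other probes gave 0.82 and 0.86. Hadh, a mitochondrial fatty acid oxidation enzyme, was higher by 1.51, or 0.98 without 24 h pool 1, and its other probes gave -0.01 and 0.92. Agps, an enzyme of ether lipid synthesis, differed by -1.41, and by -0.99 without 3 h pool 3. It was detected in 3 channels at 3 h but in 1 at 24 h. How far background set the size of the agps difference was not tested.

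From 3 to 168 h, arrb2b, a beta-arrestin of receptor signalling, read 9.89, 9.67 and 9.47, then 7.87, 7.96 and 6.42, lower by a log2 difference of -2.26 ± 0.47 (limma unadjusted p = 0.00057), but its other probe gave 0.40. Its 168 h values lay below 7.98, the highest value of cldni, a gene detected in no sham channel. How far background set the size of this difference was not tested. Nt5c3a, a pyrimidine nucleotidase, read 11.85, 12.52 and 12.13 at 3 h, 11.68, 11.22 and 11.38 at 24 h, and 9.80, 10.42 and 10.83 at 168 h. The 3 times did not overlap, and its difference from 3 to 168 h was -1.82 ± 0.40 (limma unadjusted p = 0.000887), with -0.31 by its other probe. Iscub, a scaffold for iron-sulfur clusters, read 10.14, 9.99 and 9.82 at 24 h and 7.50, 8.12 and 8.71 at 168 h, a difference of -1.87 ± 0.43 (limma unadjusted p = 0.00109). Cdkn1bb, an inhibitor of cyclin-dependent kinases, was lower at 168 h than at 3 h by a difference of -1.61 (limma unadjusted p = 0.0041). In the other direction, dnmt3ba, a DNA methyltransferase, read 7.86, 8.43 and 9.07 at 3 h and 10.97, 9.74 and 9.85 at 168 h, higher by 1.73 ± 0.49 (limma unadjusted p = 0.0044), with 0.35 by its other probe. Ppme1, a methylesterase of protein phosphatase 2A, was higher by 1.93, or by 1.23 without 3 h pool 2, and rbbp7, a histone-binding protein, by 1.35, both without overlap. The other probe of ppme1 gave -0.10 and that of rbbp7 gave 0.04. Nme2b.2, a nucleoside diphosphate kinase, was higher at 168 h than at 24 h by 2.03 (limma unadjusted p = 0.00538), with overlapping pools.

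Further genes described above differed by over 1.5 times between the readings of the dyes, and all of these kept their sign. From 3 to 24 h, the labels' reading gave -0.75 for sat1a.2 and 1.64 for myh7l, both smaller than under the array names. From 3 to 168 h it gave smaller differences for arrb2b (-1.43), cdkn1bb (-0.67), eif4ebp3l (-0.75), col1a1a (-0.30) and opn1mw2 (-0.08), all negative. Smaller positive differences were those of dnmt3ba (0.97), ppme1 (1.06), tal1 (1.38) and cnn2 (0.64), and from 24 to 168 h that of hmgb2b (0.76). Larger differences from 3 to 168 h were those of fkbp5 (-1.79), dusp1 (-1.34), gnat1 (-1.62), opn1sw1 (-0.42), mylpfa (1.52), tpma (1.98) and rbpms2b (1.04).

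Set against the unoperated eyes, the sham pools had no probe past an adjusted p of 0.05 (0%) in limma at any time. At 3 h, 824 of 14065 probes (5.86%) were at an unadjusted p under 0.05, at 24 h 740 (5.26%), at 168 h 630 (4.48%), and for the mean of the times 670 (4.76%), 207 higher and 463 lower. Of 5080 named genes, 3.11% were higher and 3.25% lower at 3 h, and 1.77% higher and 3.25% lower for the mean of the times. The smallest adjusted p was 0.1501, at 3 h. Fkbp5 was 8.83, 8.30 and 8.99 in the unoperated pools, below all 3 h sham pools, by 3.22 ± 0.76 at 3 h (limma unadjusted p = 0.00104). Mibp was 11.73, 11.29 and 12.67, and igfbp1a 8.91, 7.95 and 9.62. Both were higher in every 3 h sham pool than in every unoperated pool, by 2.26 (limma unadjusted p = 0.00208) and 2.46 (limma unadjusted p = 0.00175). For both genes the unoperated arrays did not overlap. Mibp read 11.29 and 11.48 on one unoperated array (array A, pools 3 and 2) and 12.67 and 11.97 on the other (array B, pools 4 and 2). Igfbp1a read 7.95 and 8.19 on array A and 9.62 and 9.63 on array B.

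Of 26 cone genes, 16 lay above 0 and 10 below in 3 h sham eyes against unoperated eyes, with a median of 0.32, beside 2653 of 5080 named genes above 0 and a median of 0.03. Of the cone genes, 6 were higher and 1 was lower at an unadjusted p under 0.05, beside 3.11% and 3.25% of all named genes. Guca1c in unoperated pools was 12.76, 12.56 and 11.96, and the sham mean was higher by 1.26 (limma unadjusted p = 0.00705). Its unoperated arrays did not overlap either, at 12.56 and 13.15 on array A and 11.96 and 12.37 on array B. Hbba2, an adult beta globin, was 10.46, 10.15 and 11.58 in unoperated pools. In sham pools it was 11.82, 12.56 and 12.84 at 3 h, 12.49, 12.69 and 11.33 at 24 h, and 13.22, 13.37 and 13.12 at 168 h, overlapping in 24 h pool 3 alone. The sham mean was higher by 1.88 ± 0.41 (limma unadjusted p = 0.000522, adjusted p = 0.4302), and this passed the threshold, at 2.27, when unoperated pool 4 was left out.

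The array names give pool 2 on both unoperated arrays, and it is read here as the same pool. Among genes lower in sham than in unoperated eyes, sec61b, myofl, tmem183a, papola, usp7 and whr1 followed the array and not the pool. Not all did: for wrap73, pool 2 read 8.73 on array A and 8.92 on array B, beside 9.83 for pool 4 on array B. Myofl, a relative of the membrane repair protein myoferlin, read 13.48 in unoperated pool 3 and 14.94 in pool 2 on array A, but 8.25 in the same pool 2 and 7.81 in pool 4 on array B. Tmem183a read 14.25 and 15.84 on array A and 9.03 and 9.43 on array B, whereas usp7, a deubiquitinase, read 9.55 and 9.99 on array A and 13.81 and 13.25 on array B. Of the 20 genes with the smallest p-values for the mean of the times, 10 in each direction, the channels of the 2 arrays did not overlap for 15. With 2 channels on each array, some genes lie apart through random spread alone. The share over all genes was not computed, so this count has no reference beside it. Without unoperated pool 3 the number of probes called for the mean of the times was 56, and without pool 4 it was 83, and these calls cannot be told apart from an array effect. At 3 h these numbers were 46 and 52, at 24 h 35 and 52, and at 168 h 36 and 51.

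**Figure D5:**
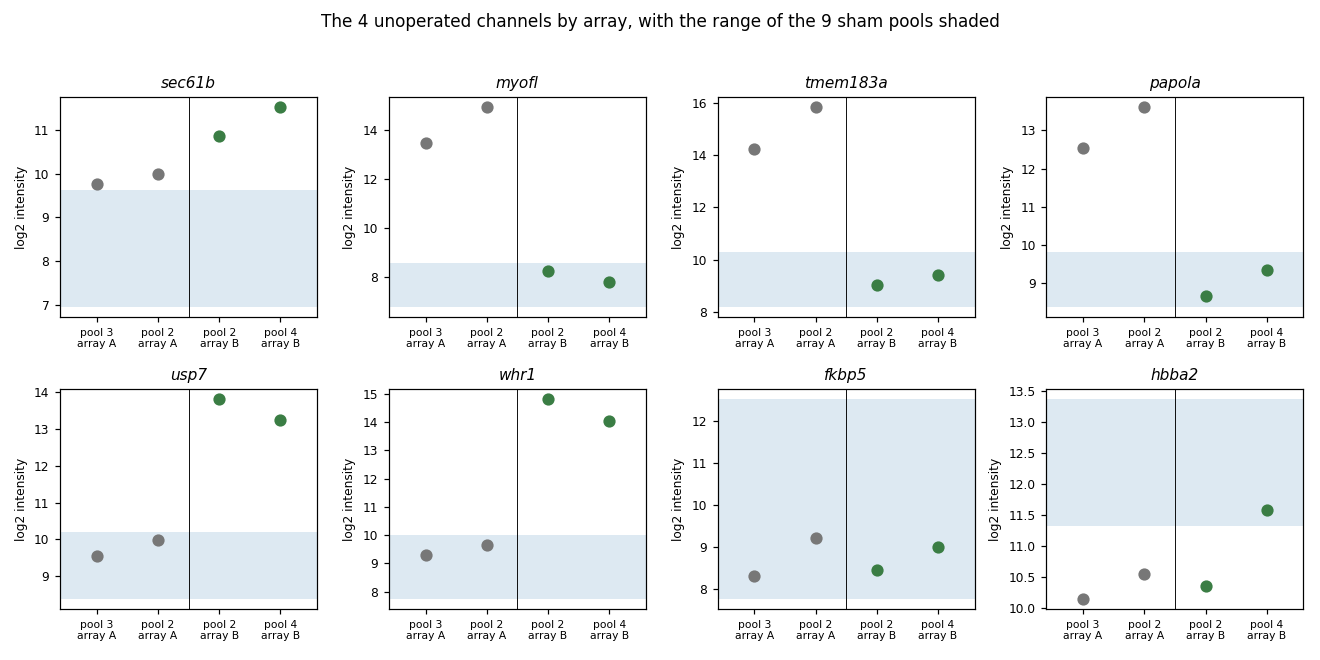
Log2 intensity of 8 genes (y axes) in the 4 unoperated channels, by pool and array (x axes), with the range of the 9 sham pools shaded. Pool 2, read on both arrays, takes the level of its array for sec61b, myofl, tmem183a, papola, usp7 and whr1, while for fkbp5 it reads 9.21 and 8.45 and for hbba2 10.56 and 10.36 on arrays A and B.

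The time differences of the sham channels were also set beside those of the injured channels, fitted the same way, as values. From 3 to 24 h, injured differences were -1.88 for mibp, -1.88 for igfbp1a, -1.07 for odc1 and -0.89 for sat1a.2, beside -2.08, -1.62, -1.40 and -1.16 in sham eyes. From 3 to 168 h they were -2.07 for arr3b, -1.29 for guca1aa and -2.44 for guca1c, beside -1.46, -2.32 and -1.30, and 1.78 for tpma beside 1.27. Injured and sham pools of an array share its spots, so like values are not independent of each other. In a within-array limma fit over 14062 probes, no difference between the sham and injured time courses was called after adjustment. There were 578 probes for 3 to 24 h, 657 for 3 to 168 h and 611 for 24 to 168 h with an unadjusted p below 0.05.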

How the data were processed

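Per the column headers, the authors' deposited scanner tables hold foreground and background intensity for both dyes of every spot, and the percent of saturated pixels, without normalization. A deposited table of log2 ratios by the authors was used only to choose between readings of the dyes, and the submitters' processing notes name limma without a version. The labels' protocols describe amplified RNA carrying amino-allyl groups coupled to Cy3 or Cy5.

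Foreground means and background medians were corrected with normexp (offset 50) in limma 3.58.1 and R 4.3.3, and log2 intensities were quantile-normalized over the 11 channels of each dye. The 9 sham channels were fitted with 1 mean per time and a dye term (lmFit and eBayes, prior degrees of freedom 6.11), with Benjamini-Hochberg adjustment over all probes at 0.05. Each time held 2 Cy5 pools and 1 Cy3 pool, so the dye term cancels in differences between times. A second fit added the 3 unoperated pools, with the channels of pool 2 averaged (7 residual degrees of freedom). Printed pool values have the probe's dye effect from that fit removed. Levels are not compared between probes, except with the range of cldni as a rough guide to background. A fitted value was missing for up to 5 probes with a spot marked bad. Arrays of 1 time are biological replicates per the labels.

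A gene was read by its brightest probe over the sham channels, and names came from the files and RefSeq gene tables. The text names, for each comparison between times, genes among the 10 smallest p-values in each direction, detected in at least 6 of 9 channels, and for each of 27 lists its first 3 measured members and up to 6 detected members with the smallest F-test p. For the unoperated comparison it names genes among the 10 in each direction detected in at least 8 of 12 samples. Members, lists and genes were chosen with earlier results of these data known. The fit was tested on simulated data. Alternatives were other normalizations, background, detection filter, an intensity trend, array weights, a fit of both channels, the dye settings, a replicate block and leaving out each pool. Pools with the same number in different times did not deviate together (r from -0.28 to 0.23, mean -0.03, 7 pairs), so the numbers were not used as pairs. Figures were drawn with matplotlib. Sequences are not used here. Some items are not reported here.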

Additional observations from a re-analysis of the deposited data

How the results depend on the processing

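In the comparisons between sham times, no probe was called under any alternative, including the replicate block with dye, which gave 0 calls and 396, 498, 475 and 417 probes at an unadjusted p under 0.05 (3 to 24 h, 3 to 168 h, 24 to 168 h, and any time). Leaving out any 1 pool also gave 0. Over the settings other than leaving out a pool, the number of probes at an unadjusted p under 0.05 ran from 253 to 787 (449 as reported) for 3 to 24 h, 440 to 1074 (702) for 3 to 168 h, 388 to 915 (671) for 24 to 168 h and 314 to 969 (552) for any time, with the low counts of the first 3 coming from the filter on detection, which tests fewer probes, and the high counts of all but 24 to 168 h from array weights. Against unoperated eyes the detection filter gave 478 (824 as reported), 418 (740), 342 (630) and 369 (670) at 3, 24 and 168 h and for the mean, and leaving out unoperated pool 2 gave 518, 484, 380 and 430. Of 160 counts of calls, 147 kept to the main value, and the other 13 all concerned unoperated eyes. There, loess with Aquantile gave 1 call at 3 h, and no background subtraction gave 1 at 24 h and 2 for the mean of the times. Leaving out 1 pool gave 0 to 52 calls at 3 h, 0 to 52 at 24 h, 0 to 51 at 168 h and 0 to 83 for the mean, the high counts without unoperated pool 3 or 4.

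List medians at 168 h against 3 h, with any 1 pool left out, ran from -0.43 to 0.02 for immediate early genes, -0.68 to 0.13 for rods, -0.44 to 0.01 for cones and -0.32 to -0.01 for the inner retina. They ran from -0.19 to 0.05 for Müller glia, -0.10 to 0.36 for ganglion cells, -0.21 to 0.15 for pigment epithelium, -0.07 to 0.13 for skeletal muscle and 0.38 to 0.75 for smooth muscle and vessels. They ran from -0.06 to 0.19 for leukocytes, -0.15 to 0.01 for matrix, -0.04 to 0.21 for the proteasome, -0.16 to 0.32 for ribosomal proteins, 0.06 to 0.30 for the cell cycle and -0.13 to -0.04 for translation and splicing. At 24 h against 3 h they ran from -0.30 to 0.03 for glucocorticoid targets, -0.18 to 0.15 for clock genes and 0.00 to 0.21 for heat shock genes. Without background subtraction the immediate early median was -0.18 and that of smooth muscle and vessels 0.43, and with all probes of a gene averaged the latter was 0.31. Over detected members alone, medians at 168 h against 3 h were -0.04 for cones, -0.03 for leukocytes and -0.25 for Müller glia. Those of the cell cycle and the proteasome were 0.37 and 0.46. At 24 h against 3 h, medians over detected members were 0.02 for clock genes and -1.06 for glucocorticoid targets. Under the labels' dye reading the medians at 168 h against 3 h were 0.29 for leukocytes, 0.29 for smooth muscle and vessels, -0.32 for the inner retina and 0.24 for the proteasome. The cause was not tested.

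Of 2368 single-gene values, 2355 kept direction and side of the threshold. Size did not enter this count, and no probe was called between sham times under any setting. Values counted as kept include fkbp5 at 168 h against 3 h, -1.01 as reported and -0.03 without 168 h pool 1. They also include banf1 at 24 h against 3 h, 1.16 as reported and 0.16 under the labels' dye reading. The sign turned for fkbp5 at 168 h against 3 h with the replicate block (0.08), rpe65a at 24 h under the labels' dye reading (0.01), and gnat1 (0.14), opn1sw1 (0.46) and opn1mw2 (0.11) without 168 h pool 1, where the lowest values with 1 pool left out were -1.63, -0.62 and -0.99. It also turned for opn1sw1 (0.29) and opn1mw2 (0.08) with the block. Some genes passed the threshold against unoperated eyes with 1 unoperated pool left out: hbba2 (2.27), myofl (-4.77), papola (-2.73) and tmem183a (-4.20) without pool 4, and usp7 (-3.14) and whr1 (-4.38) without pool 3. A scan date or slide block was not run, since the files used here name neither. Dim signals limit the rest: most named genes were detected in fewer than 6 of 9 channels. Some values of fkbp5 and hmgb2b at 24 h, banf1 and dnmt3ba at 3 h, and iscub, neurod1 and cnn2 at 168 h lay below 7.98. That was the highest value of cldni, a gene detected in no sham channel. It marks no limit for other probes: agps read 8.36, 8.52 and 8.73 at 24 h and was detected in 1 of those channels. Dim values above 7.98 can therefore be undetected too. How far background set the size of their differences was not tested.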

Other observations

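Some genes in the 24 to 168 h comparison were not described above. Hadhb, a subunit of a mitochondrial fatty acid oxidation complex, read 10.09, 9.78 and 9.86 at 24 h and 9.10, 8.40 and 7.95 at 168 h, a difference of -1.43 ± 0.46 without overlap (limma unadjusted p = 0.0105). Carhsp1, an RNA-binding cold shock domain protein, read 8.49, 8.23 and 8.13 at 24 h and 9.77, 9.46 and 9.38 at 168 h, higher by 1.25 ± 0.37 without overlap (limma unadjusted p = 0.0058). Arpc1b, a subunit of the Arp2/3 complex that branches actin filaments, differed by 1.42, without overlap, but its other probes gave -0.46, -0.62 and 0.01. Ccnf, a cyclin with an F-box, differed by 1.65, also without overlap, but by 0.23 with its other probe and 0.39 under the labels' dye reading. Fibinb was lowest at 24 h, with 7.90, 7.64 and 7.79 against 8.89, 9.19 and 8.40 at 3 h and 8.64, 9.65 and 9.30 at 168 h, and no 24 h pool reached either other time (differences of -1.06, limma unadjusted p = 0.0243, and 1.42, limma unadjusted p = 0.00482). Under the labels' dye reading the differences of fibinb were -0.07 and 0.48. The 24 h values of fibinb all lay within the range of cldni, a gene detected in no sham channel (6.97 to 7.98). How far background set the size of these differences was not tested. None of the genes in this paragraph passed an adjusted p of 0.05.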
